A study of Sus scrofa with 24 samples.

Results

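The genes described here are the enzymes of glycolysis and a set of targets of the hypoxia-inducible factors (HIFs), in pig airway epithelium 2 h and 24 h after a mock or flagellin exposure. They are the members of a list of 44 gene symbols that carry a row in the deposited table of read counts: 39 of the 44 have one. All 39 reached 1 CPM (read counts scaled to library size) in at least 4 libraries, and they are 39 of the 25880 pig genes in the table and 39 of the 14172 genes tested. SLC2A1, SLC2A3, SLC16A1, BNIP3 and CA9 are not among them, because no pig identifier in the table carries those symbols. ENO2 and STC1 are the only members with libraries under 1 CPM.

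Bronchial epithelial cells from wild-type pigs 1 month old were grown at an air-liquid interface, where the cells sit on a porous membrane with medium below and air above. All cultures had a 1 h pre-incubation, with the solvent DMSO in the PBS and flagellin groups and with SB203580 at 20 µM, which blocks p38 kinases, in the third. PBS or 100 ng/ml flagellin, the bacterial protein sensed by Toll-like receptor 5, followed for 2 h or 24 h. The 6 groups of 4 libraries are therefore DMSO with PBS, DMSO with flagellin and SB203580 with flagellin, each at both times, and SB203580 without flagellin was not analysed here. The labels do not say whether the 4 libraries of a group came from separate animals, so each p-value reflects variation among libraries that may be technical only. In bulk RNA, a change in the number of cells of a type and a change in RNA per cell cannot be told apart.

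Glycolysis splits glucose into pyruvate. Hexokinases trap glucose, phosphofructokinase commits it to the pathway, the enzymes from aldolase to pyruvate kinase harvest ATP, and lactate dehydrogenase and the monocarboxylate transporters dispose of the product when mitochondria do not take it up. HIF-1α (HIF1A) and HIF-2α (EPAS1) are transcription factors that prolyl hydroxylases (EGLN genes) mark for destruction while oxygen is present. When oxygen falls the proteins persist, and they raise transcription of most glycolytic enzymes, of angiogenic and secreted factors, and of the hydroxylases themselves. HIF protein is controlled mainly after translation, so the RNA of HIF1A and EPAS1 is not a reading of HIF activity.

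The 24 libraries held between 26345945 and 36267289 counts in pig genes, so that 3 counts, the limit that a count of 0 allows, correspond to 0.0827 to 0.114 CPM (counting error only). The libraries numbered 1 and 2 had higher secretory marker levels than those numbered 3 and 4 in every group. The summed level of 10 club and secretory cell markers was 2110 to 3980 CPM in the first set and 790 to 1600 CPM in the second. For 7 squamous markers the sums overlapped, at 2070 to 11800 CPM against 1740 to 2410 CPM. Among replicates 1 and 2, 5 libraries had lower mean ciliated and secretory marker levels than the other 7 (PBS 2 h replicate 2, flagellin 24 h replicate 2, SB203580 plus flagellin 2 h replicate 1, and SB203580 plus flagellin 24 h replicates 1 and 2). The cells were epithelial by their markers: 6 epithelial genes, including EPCAM and CDH1, summed to 4750 to 5760 CPM at 2 h and 3740 to 5580 CPM at 24 h. Red cell markers did not exceed 0.0622 CPM.

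Rows for these genes are not all clean. Of the 39, 15 share exonic bases with a neighbouring gene row, and 9 share more than 10% of their exon length, among them TPI1 (78.4%, with SPSB2 and USP5), ALDOC (58.3%, with SPAG5) and ANKRD37 (53.4%, with UFSP2). The strand setting of the counting is not given, and reads from overlapping genes cannot be assigned with certainty. GAPDH, PGAM1, ENO1, PKM and LDHA have near-identical processed copies in mammalian genomes, which can also share reads. The row named LDHB lies at 2:12988754-12990030 in the table's coordinates and spans 1277 bases, whereas RefSeq lists a further LDHB on chromosome 5. The row at that second position (5:51810967-51831490) held 193 ± 54 CPM (SD, n = 4) in PBS at 2 h against 14.2 ± 3.04 CPM for the row carrying the name, so LDHB values below are those of a short locus and are uncertain.

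Levels per kilobase of exon set the scale. ENO1 was the highest of the 39, with a median of 468 CPM per kb over the 24 libraries, followed by PGK1 at 393 and LDHA at 368, and GAPDH stood at 312. ENO2, the neuronal enolase, was lowest at 0.222 CPM per kb, followed by the hormone genes STC1 at 0.633 and STC2 at 2.00. Together, the 22 members that act between glucose and pyruvate or on pyruvate and lactate made up 0.905% ± 0.131 of all counts (SD, n = 4) in PBS at 2 h and 1.71% ± 0.252 in PBS at 24 h. The shares were 1.00% ± 0.128 and 1.75% ± 0.18 with flagellin, and 0.976% ± 0.111 and 1.60% ± 0.348 with SB203580 plus flagellin. The lowest library at 24 h (1.23%) lay above the highest library at 2 h (1.11%).

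**Figure D1:**
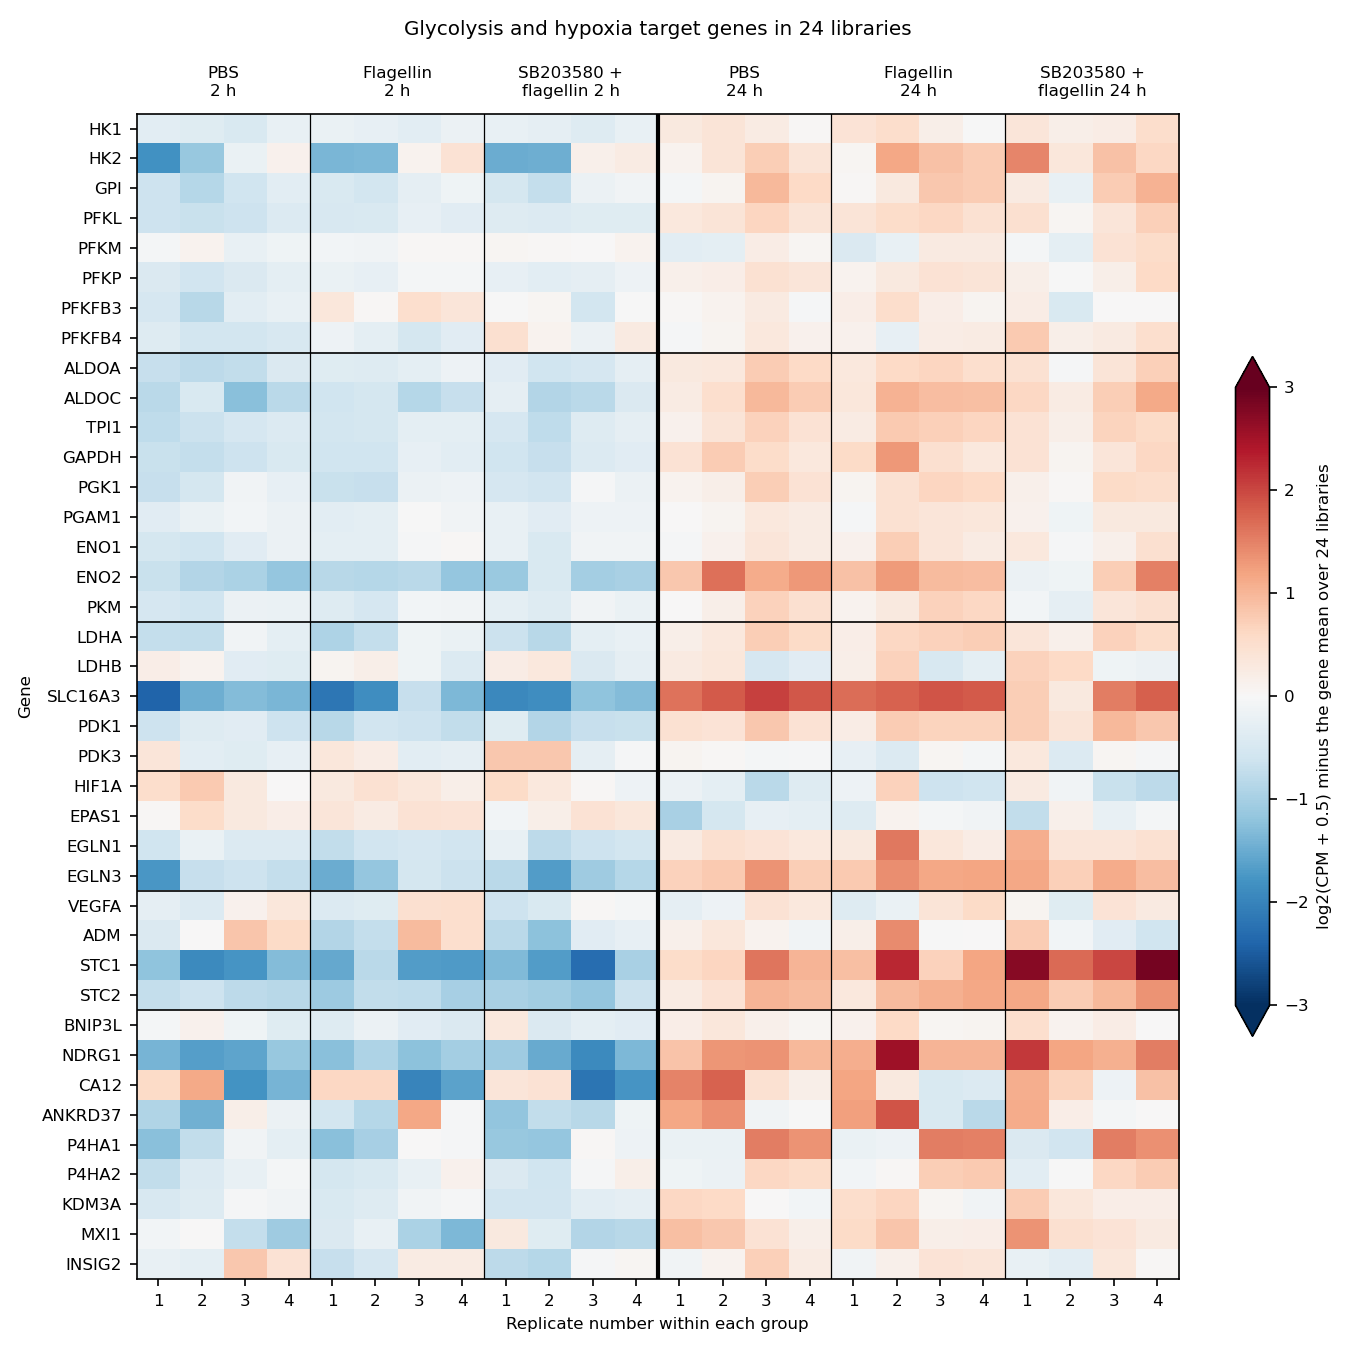
Level of each of the 39 genes (rows, grouped by role) in each of the 24 libraries (columns, by group and replicate), as log2(CPM + 0.5) minus that gene's mean over all libraries. Most rows are above their mean at 24 h and below it at 2 h in all 3 treatments, with EPAS1 and HIF1A the other way round, while HK2, CA12, ANKRD37 and P4HA1 also differ between replicates 1 and 2 and replicates 3 and 4.

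The comparison of 24 h with 2 h within a treatment asks how these genes move during culture after the medium and ligand were added. In PBS, 24 of the 39 genes rose and 1, EPAS1, fell, by edgeR's quasi-likelihood test at an adjusted p under 0.05 over all 14172 genes. Over all genes tested, 5.28% rose and 4.88% fell. With flagellin 23 rose and 0 fell, against 4.23% and 3.68% of all genes. With SB203580 plus flagellin 20 rose and 0 fell, against 3.70% and 3.18% of all genes. The median log2 change of the 39 was 0.78, 0.74 and 0.83 in the 3 treatments in that order, while the median of all genes was -0.01, 0.01 and 0.01. The 3 comparisons use different libraries, but they share the same fit and its estimate of spread, so they are not independent repeats. Across them, 19 genes rose in all 3 and 26 rose in at least 1.

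In a fit that takes the replicate number as a block, 29 genes rose and 2 fell in PBS, beside 11.0% and 11.4% of all genes. In the same fit 28 rose and 1 fell with flagellin (9.54% and 9.26% of all genes), and 28 rose and 1 fell with SB203580 plus flagellin (8.67% and 8.42%). Within replicates 1 and 2 alone, 22 of 23 called genes rose in PBS, 28 of 28 with flagellin and 21 of 21 with SB203580 plus flagellin. Within replicates 3 and 4 alone, 29 of 32, 26 of 30 and 30 of 32 called genes rose, and the rest fell. With only the groups compared in the fit, the calls dropped to 18 in PBS, 12 with flagellin and 12 with SB203580 plus flagellin, all among those called above. The share of all genes called also moves with the fit. It is not given for the sets alone or for only the groups compared, so those counts have no background beside them. Called members kept their sign under every alternative setting run for the 3 time comparisons.

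**Figure D2:**
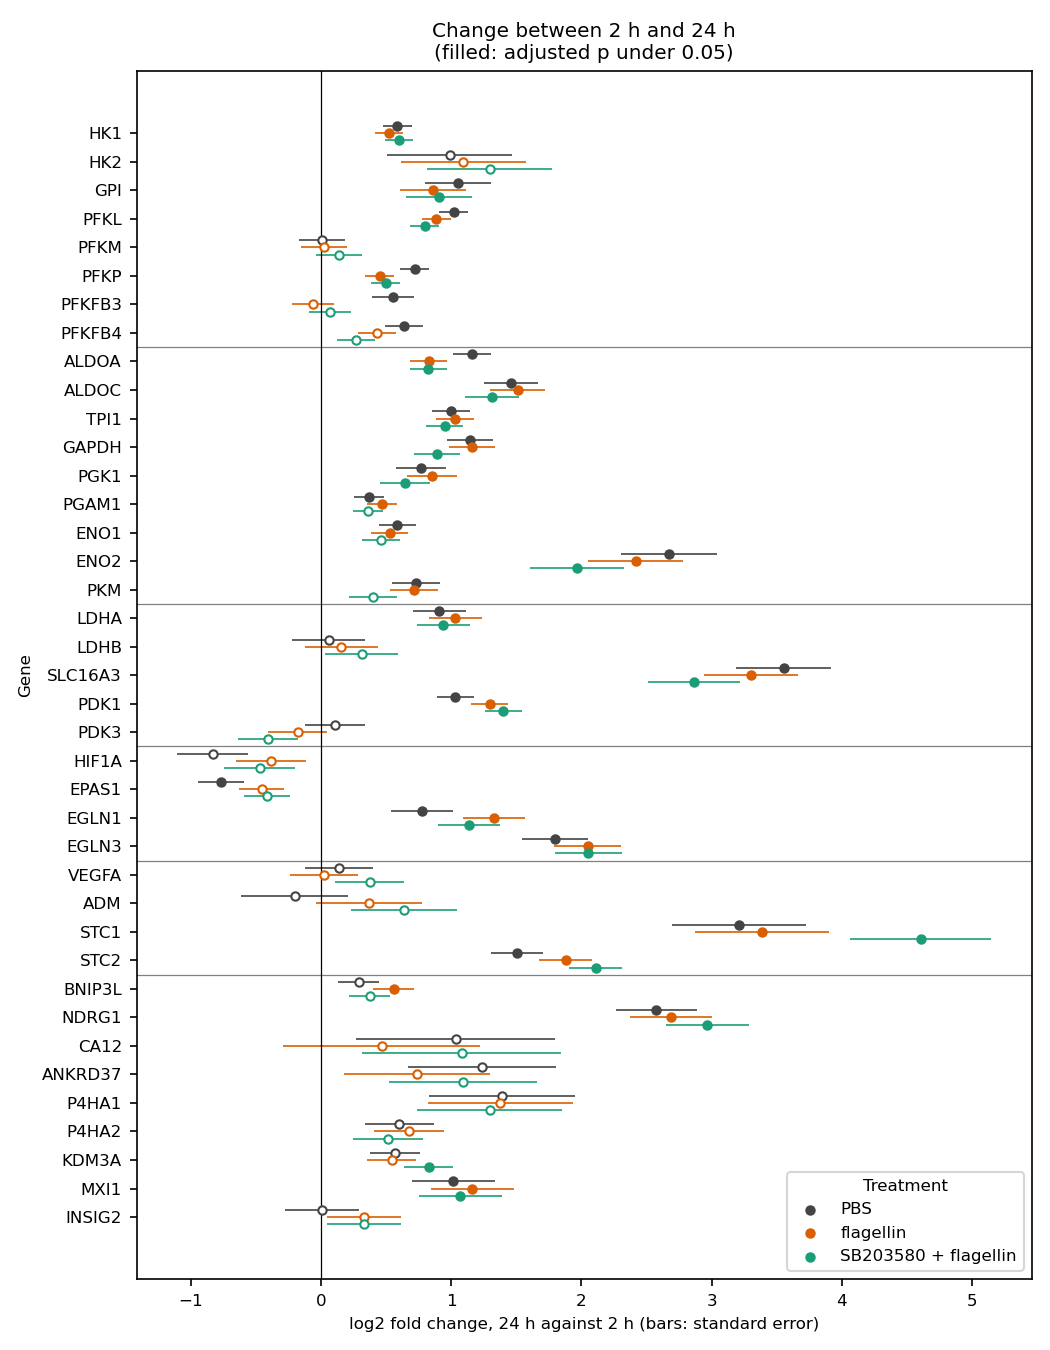
Log2 fold change between 2 h and 24 h for each gene, with its standard error, in PBS (grey), flagellin (orange) and SB203580 plus flagellin (green). Filled points have an adjusted p under 0.05. SLC16A3, STC1, NDRG1 and ENO2 lie farthest to the right, and EPAS1 in PBS is the only filled point left of 0.

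The first steps of the pathway, from hexokinase to phosphofructokinase and its regulators, rose in 6 of 8 genes in PBS and in 4 of 8 in each of the flagellin treatments. HK1, the broadly expressed hexokinase, was at 463, 448, 417 and 493 CPM in the 4 PBS libraries at 2 h and at 702, 757, 685 and 592 CPM at 24 h. All 24 h libraries lay above all 2 h libraries, a log2 change of 0.59 (SE 0.111, adjusted p = 0.00217). PFKL, the liver-type phosphofructokinase, went from 111, 107, 110 and 127 CPM to 211, 223, 266 and 224 CPM in PBS. The 2 ranges were far apart, the log2 change was 1.02 (SE 0.112, adjusted p = 2.05e-05), and it was 0.89 and 0.80 with flagellin and with SB203580 plus flagellin. PFKP, the platelet type, rose by 0.72, 0.45 and 0.50 on the log2 scale in the 3 treatments. PFKM, the muscle type, gave log2 values of 0.01, 0.03 and 0.14, none past the test (adjusted p = 0.987, 0.96 and 0.728). These values combine opposite signs. PFKM gave -0.322, -0.234 and -0.221 in replicates 1 and 2 alone, and 0.338, 0.224 and 0.418 in replicates 3 and 4 alone. In the latter set it passed in PBS and with SB203580 plus flagellin.

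PFKL supplied 44.9% ± 0.642 of the per-kilobase signal of the 3 phosphofructokinase genes in PBS at 2 h (SD, n = 4) and 51.7% ± 1.51 at 24 h. The libraries of the 2 times did not overlap. An exact two-sided permutation test of 4 against 4 gave p = 0.0286, the smallest this design allows, and 0.0515 after adjustment over 18 such isozyme comparisons, so none of the 18 passed.

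GPI, glucose-6-phosphate isomerase, rose in all 3 treatments, from 262, 224, 267 and 326 CPM to 392, 430, 796 and 617 CPM in PBS. Replicates 3 and 4 reached the higher 24 h values, and the log2 change of 1.05 (SE 0.255) had an adjusted p of 0.0122. HK2, the inducible hexokinase, was at 70.6, 113, 219 and 276 CPM at 2 h and 272, 326, 420 and 327 CPM at 24 h in PBS. Its log2 change of 0.99 (SE 0.478, adjusted p = 0.209) did not pass. Replicates 1 and 2 were the low ones at 2 h, and with the block it was 1.15 (adjusted p = 0.0415). The block gave 1.29 (adjusted p = 0.0285) and 1.57 (adjusted p = 0.0113) with flagellin and with SB203580 plus flagellin.

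PFKFB3 and PFKFB4 make fructose 2,6-bisphosphate, the allosteric activator of phosphofructokinase. In PBS, PFKFB3 rose by 0.55 on the log2 scale (adjusted p = 0.0347) and PFKFB4 by 0.64 (adjusted p = 0.00985), the latter from 19, 16.9, 16.9 and 17.6 CPM to 24.3, 26.4, 31.4 and 27.5 CPM. In the flagellin treatments neither passed: PFKFB3 gave -0.06 and 0.07, and PFKFB4 gave 0.43 (adjusted p = 0.08, 0.0276 with the block) and 0.27 (adjusted p = 0.324).

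The 9 genes from aldolase to pyruvate kinase rose without exception in PBS and with flagellin, and 6 of 9 rose with SB203580 plus flagellin, where PGAM1 (0.36, adjusted p = 0.0644), ENO1 (0.46, adjusted p = 0.0586) and PKM (0.40, adjusted p = 0.229) passed with the block (adjusted p = 0.00869, 0.0174 and 0.00943). GAPDH, which oxidises glyceraldehyde 3-phosphate and is widely used as a reference gene, was at 1300, 1270, 1350 and 1510 CPM in PBS at 2 h and at 2810, 3530, 3070 and 2580 CPM at 24 h. The lowest 24 h library was well above the highest 2 h library, with a log2 change of 1.14 (SE 0.179, adjusted p = 0.000457). With flagellin and with SB203580 plus flagellin GAPDH rose by 1.16 and 0.89.

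ALDOA, the main aldolase, went from 970, 906, 945 and 1170 CPM to 1910, 1970, 2660 and 2370 CPM in PBS, a log2 change of 1.16 (SE 0.145, adjusted p = 6.21e-05). ALDOC, the brain-type aldolase, was at 24, 30.6, 17.4 and 24 CPM at 2 h and at 50.1, 59.7, 82.7 and 71.8 CPM at 24 h. It rose by 1.46, 1.51 and 1.31 in the 3 treatments, with the overlap with SPAG5 noted above. TPI1, triosephosphate isomerase, rose by 1.00, 1.03 and 0.95. PGK1, the first ATP-forming step, rose by 0.77, 0.86 and 0.65.

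ENO1, the abundant enolase, rose by 0.59 in PBS and PKM, pyruvate kinase, by 0.73. PGAM1, phosphoglycerate mutase, had the smallest called change in PBS, 0.37 (adjusted p = 0.047). ENO2 was scarce at 2 h in PBS, with 1.12, 0.907, 0.84 and 0.658 CPM, and at 4.01, 7.58, 5.1 and 5.79 CPM at 24 h. The times did not overlap and the log2 change was 2.67 (SE 0.37, adjusted p = 0.00017), followed by 2.42 and 1.96 in the flagellin treatments. Even so, ENO2 made up 0.147% ± 0.0399 of the enolase signal per kilobase at 24 h in PBS, and 0.0356% ± 0.0113 at 2 h (SD, n = 4).

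At the end of the pathway, SLC16A3 had the largest change of the 39 genes in PBS. It encodes MCT4, the low-affinity transporter that exports lactate. The 4 PBS libraries held 2.49, 5.29, 5.92 and 5.63 CPM at 2 h and 48.5, 55.9, 65.7 and 57.1 CPM at 24 h. Every 24 h library was many times above every 2 h library, and the log2 change was 3.55 (SE 0.365, adjusted p = 1.6e-05). With flagellin it went from 3.04, 3.88, 9.4 and 5.75 CPM to 50, 53.8, 57.8 and 56 CPM (log2 change 3.30). With SB203580 plus flagellin the 24 h libraries were more spread, at 26.1, 19.1, 45.2 and 54.9 CPM, and the log2 change was 2.87. In that group replicates 1 and 2, which are the low ones, are among the 5 libraries low in secretory and ciliated markers, and the part of those cells in the value was not tested.

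LDHA, which reduces pyruvate to lactate, was at 657, 642, 989 and 875 CPM in PBS at 2 h and at 1210, 1340, 1790 and 1590 CPM at 24 h. Both times show the higher values in replicates 3 and 4, and the log2 change was 0.91 (SE 0.204, adjusted p = 0.00777), with 1.03 and 0.94 in the flagellin treatments. The LDHB row gave 0.06 in PBS (adjusted p = 0.935), and the row at the second LDHB position also gave 0.06 (adjusted p = 0.944).

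PDK1, a kinase that shuts the pyruvate dehydrogenase complex and so keeps pyruvate out of mitochondria, was at 37.2, 44.1, 45.2 and 37.4 CPM at 2 h and 78.8, 77, 101 and 78.3 CPM at 24 h in PBS. The log2 change was 1.03 (SE 0.14, adjusted p = 0.000138) in PBS and 1.30 with flagellin, and SB203580 plus flagellin gave a 2.64-fold rise. PDK3, a kinase of the same family, gave 0.11, -0.18 and -0.41, none of which passed. PDK1 was 59.9% ± 7.78 of the per-kilobase signal of the 2 kinases in PBS at 2 h and 73.4% ± 3.08 at 24 h (SD, n = 4).

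**Figure D3:**
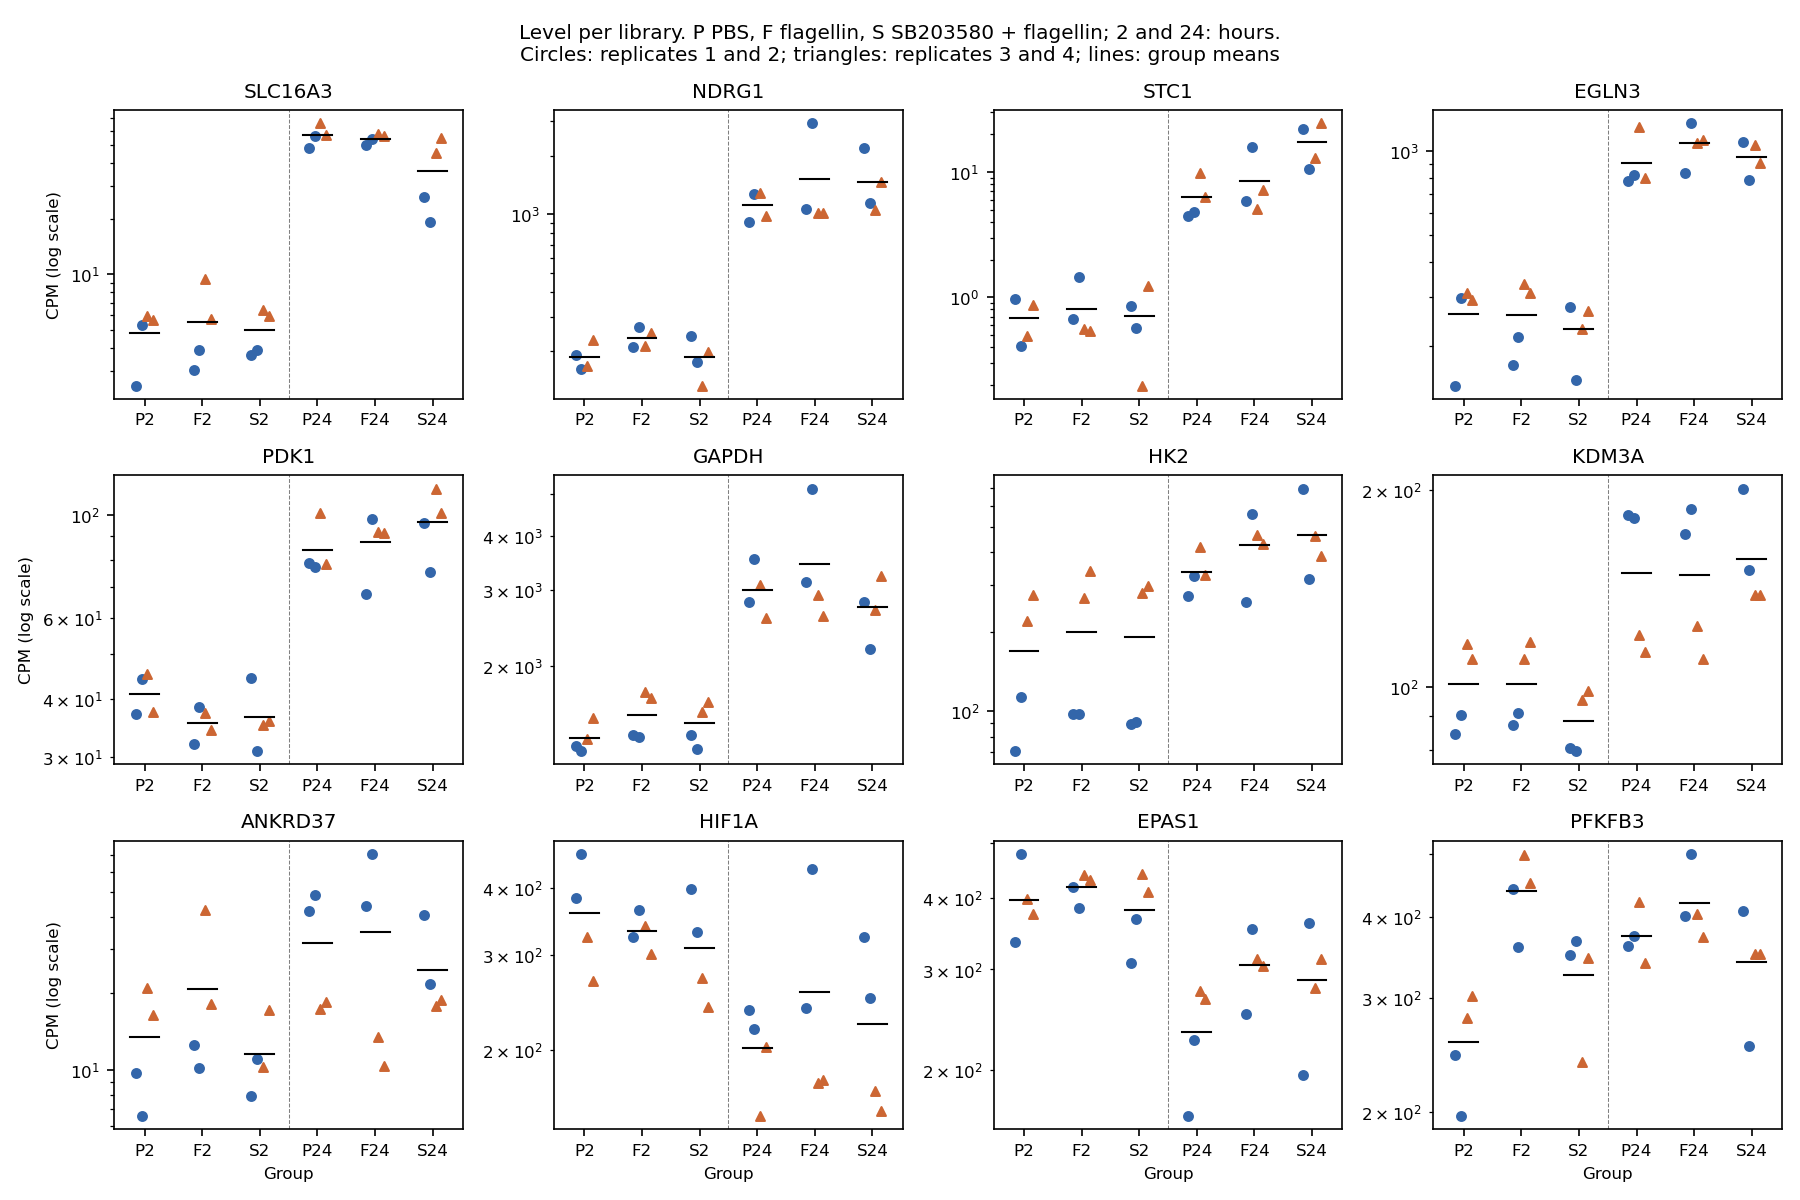
CPM per library on a log axis for 12 genes, by group, with each point 1 library and replicates 1 and 2 drawn apart from replicates 3 and 4. SLC16A3 lies between 2.49 and 9.4 CPM at 2 h and between 19.1 and 65.7 CPM at 24 h, while HK2 at 2 h and KDM3A at both times separate by replicate set within every group.

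The regulators moved in opposite directions. EGLN3, a prolyl hydroxylase that is itself a HIF target, was at 144, 297, 311 and 293 CPM in PBS at 2 h and at 781, 825, 1220 and 802 CPM at 24 h. The groups were widely separated, and the log2 change was 1.80 (SE 0.255, adjusted p = 0.000204), with 2.05 in both flagellin treatments. EGLN1, the main oxygen sensor among the hydroxylases, rose by 0.78 (adjusted p = 0.0412), 1.33 and 1.14. In the flagellin group at 24 h its value was 326 CPM in replicate 2 and 127 to 136 CPM in the other 3.

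EPAS1 was at 335, 479, 399 and 376 CPM in PBS at 2 h and at 166, 226, 275 and 266 CPM at 24 h. All 24 h libraries were below all 2 h libraries, and EPAS1 fell by 0.77 on the log2 scale (SE 0.177, adjusted p = 0.00903). The call was lost with only the groups compared in the fit (-0.76, adjusted p = 0.0518) and in replicates 1 and 2 alone (-1.03, adjusted p = 0.0537). In the flagellin treatments the values were -0.46 (adjusted p = 0.125) and -0.41 (adjusted p = 0.183), past the test with the block (adjusted p = 0.0127 and 0.0246). HIF1A was at 383, 463, 325 and 269 CPM at 2 h and at 237, 219, 151 and 203 CPM at 24 h in PBS. Its libraries did not overlap either, but the log2 value of -0.83 (SE 0.273) had an adjusted p of 0.0579, which was 0.00405 with the block. With flagellin it was -0.38 and with SB203580 plus flagellin -0.47, neither past the test with or without the block. HIF1A did pass in every treatment within replicates 3 and 4 alone (-0.735, -0.88 and -0.68). Within replicates 1 and 2 alone it passed in PBS only (-0.874, against -0.038 and -0.337 in the flagellin treatments). Every treatment also passed without the 5 libraries low in secretory and ciliated markers. These include flagellin 24 h replicate 2, where HIF1A was at 433 CPM.

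Among the secreted targets, the 2 stanniocalcins rose and the 2 vasoactive factors did not pass. STC1, a glycoprotein hormone, was scarce in PBS at 2 h (0.967, 0.407, 0.49 and 0.868 CPM) and reached 4.43, 4.81, 9.83 and 6.32 CPM at 24 h. The log2 change was 3.21 (SE 0.516, adjusted p = 0.000591) in PBS, 3.39 with flagellin and 4.61 with SB203580 plus flagellin, where the 24 h libraries held 22, 10.5, 13 and 24.4 CPM. STC2, its paralog, went from 6.58, 7.07, 6.27 and 6.04 CPM to 13.4, 15.1, 23.1 and 22.1 CPM in PBS, a 2.84-fold rise, and rose by 1.88 and 2.11 on the log2 scale in the flagellin treatments.

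VEGFA, the endothelial growth factor and a standard HIF target, was at 105, 95.7, 140 and 162 CPM at 2 h and at 106, 115, 172 and 160 CPM at 24 h in PBS. The 2 times overlapped almost completely (log2 value 0.14, adjusted p = 0.812), and the flagellin treatments gave 0.02 and 0.37, the latter past the test with the block (adjusted p = 0.0188). ADM, adrenomedullin, gave -0.20, 0.37 and 0.64, none past the test.

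Of the other 9 targets, 2 rose in PBS, 3 with flagellin and 3 with SB203580 plus flagellin. NDRG1, a stress-response gene strongly induced by low oxygen in many epithelia, was at 192, 161, 168 and 228 CPM in PBS at 2 h and at 919, 1270, 1290 and 983 CPM at 24 h. The times were far apart, with a log2 change of 2.58 (SE 0.313, adjusted p = 4.81e-05). It rose by 2.69 with flagellin and 2.97 with SB203580 plus flagellin. MXI1, a MYC antagonist, rose by 1.02, 1.16 and 1.07. BNIP3L, a mitophagy receptor, passed with flagellin (0.56, adjusted p = 0.0311), and KDM3A, a histone demethylase, with SB203580 plus flagellin (0.83, adjusted p = 0.011). In PBS KDM3A gave 0.57 (adjusted p = 0.0608, 0.0476 with the block).

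P4HA1, a collagen prolyl hydroxylase subunit, was at 33.4, 48, 74.6 and 65.5 CPM in PBS at 2 h and at 69.7, 70.5, 233 and 207 CPM at 24 h. Every replicate was higher at 24 h, but the ranges overlapped, and the log2 value of 1.39 (SE 0.558, adjusted p = 0.123) did not pass. P4HA1 passed when the replicate was a block (1.20, adjusted p = 0.000241). It also passed within replicates 1 and 2 alone (0.81) and within replicates 3 and 4 alone (1.66). P4HA2, which makes a related subunit, gave 0.60 (adjusted p = 0.167, 0.000635 with the block). CA12, a membrane carbonic anhydrase, gave 1.03 (adjusted p = 0.447, 0.0181 with the block). ANKRD37 gave 1.23 (adjusted p = 0.184) and INSIG2, a regulator of sterol synthesis, 0.01 in PBS.

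Calls near the threshold were often lost when 1 library was left out, in some genes with almost any library. Of the 25 calls in PBS, 18 held without any 1 of the 8 libraries. EGLN1 was lost in 8 of the 8 such fits, PGAM1 in 7, and PFKFB3 and MXI1 in 6 each, while PGK1 was lost without PBS 2 h replicate 1 or 24 h replicate 3, PKM without 2 h replicate 2 or 24 h replicate 3, and GPI without 24 h replicate 3. With flagellin, 16 of 23 held, and GPI (6 of 8 fits), ENO1, PKM, BNIP3L and MXI1 (4 each), and PFKP and PGAM1 (2 each) were lost. With SB203580 plus flagellin, 17 of 20 held, and GPI (5 fits), PGK1 and MXI1 (6 each) were lost. Without the 5 libraries low in secretory and ciliated markers, 25, 25 and 19 genes were called in the 3 treatments, 23, 22 and 17 of them the same genes. The share of all genes called in that fit is not given, so these counts have no background beside them.

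Markers of other cell types were read beside these changes. Between 2 h and 24 h in PBS, 1 of 4 measured endothelial markers and 1 of 7 leukocyte markers passed the test. So did 1 of 8 fibroblast and smooth muscle markers, beside 5.28% of all genes that rose and 4.88% that fell. None of the epithelial, ciliated, secretory, goblet, basal, squamous or proliferation markers passed. The summed endothelial list was 82.9 to 259 CPM at 2 h and 148 to 515 CPM at 24 h. Most of it was KDR (77.5 to 509 CPM). Over all libraries PECAM1 stayed between 1.89 and 6.34 CPM, TIE1 between 1.25 and 6.69 CPM and CDH5 between 0 and 0.0558 CPM. In PBS that list did not overlap between the times (90.6 to 259 and 348 to 515 CPM), and its part in the time changes was not tested. Leukocyte markers summed to 7.93 to 30.9 CPM and 20.4 to 48.3 CPM, and fibroblast markers to 13.4 to 29 CPM and 10.2 to 51 CPM. Among the leukocyte markers CD68 (5.36 to 28.4 CPM) and LYZ (1.74 to 21.5 CPM) were highest, while PTPRC did not exceed 0.113 CPM. Mitochondrial transcripts took 3.35% to 6.15% of counts in PBS at 2 h and 3.03% to 5.52% at 24 h.

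Other genes of the same pathways give the frame. Of 33 further tested genes of glycolysis, gluconeogenesis and pyruvate oxidation, 0 rose in PBS and 2 fell, a share near the 4.88% of all genes that fell. They were DLAT, by 0.48 (63.7 ± 7.46 to 45.7 ± 3.2 CPM, SD, n = 4), and PDHB, by 0.28. Of these 33, 0 passed in either direction with flagellin, and DLAT alone fell with SB203580 plus flagellin. Of 26 genes of the pentose phosphate pathway and the tricarboxylic acid cycle, 0 rose in any treatment and 2, 3 and 3 fell. Of all genes, 4.88%, 3.68% and 3.18% fell in the 3 treatments. Those that fell include ME2, mitochondrial malic enzyme (-0.97 in PBS), and SUCLA2, a succinyl-CoA ligase subunit (-0.55).

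Of 49 further HIF pathway genes and hypoxia targets, 8, 8 and 6 rose, beside 5.28%, 4.23% and 3.70% of all genes. In each treatment 2 fell, a share near the 4.88%, 3.68% and 3.18% of all genes. The median log2 values were 0.29, 0.29 and 0.24. ERO1A, the oxidase of protein folding in the endoplasmic reticulum, rose in PBS from 74.9 ± 10.8 to 348 ± 94.1 CPM (log2 change 2.22, adjusted p = 8.63e-06). ZNF395, a zinc-finger factor, rose by 2.17, PLOD1, a collagen lysyl hydroxylase, by 1.54 and RRAGD, a GTPase of amino acid sensing, by 1.20. TFRC, the transferrin receptor, fell by 1.05, and HIF1AN, the asparaginyl hydroxylase of HIF, fell by 0.30. With the block 16, 17 and 14 of the 49 rose, beside 11.0%, 9.54% and 8.67% of all genes.

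Rows that carry no symbol but lie where RefSeq (Sscrofa11.1) places a listed gene were read apart from the 39. All 39 members overlap a RefSeq gene of their own name, which checks the match of positions. The row at BNIP3, a mitophagy receptor and HIF target, went from 98.0 ± 15.6 to 885 ± 177 CPM in PBS (SD, n = 4), a log2 change of 3.18 (adjusted p = 1.88e-05), and gave 3.47 and 3.35 in the other treatments. The row at SLC2A3, a high-affinity glucose transporter, went from 7.16 ± 1.84 to 74.7 ± 51.2 CPM (3.38, adjusted p = 0.00268). The row at CA9, a carbonic anhydrase often used as a hypoxia marker, was at 17.8 ± 3.08 and 23.9 ± 6.63 CPM (0.43, adjusted p = 0.325).

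Comparisons of flagellin with PBS ask what the TLR5 ligand does to these genes. At 2 h, 1 of the 39 passed, PFKFB3, beside 0.325% of all genes tested in either direction. The PBS libraries held 245, 197, 279 and 302 CPM and the flagellin libraries 442, 360, 498 and 451 CPM. All flagellin libraries were above all PBS libraries, with a log2 difference of 0.78 (SE 0.163, adjusted p = 0.0369). The call was lost without PBS replicate 1, 2 or 3 or flagellin replicate 1, 3 or 4, within replicates 1 and 2 alone, with only the groups compared in the fit, and without the 5 libraries low in secretory and ciliated markers, though the difference was positive in each.

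PFKP (0.28) and ALDOA (0.36) also had flagellin libraries that were all above the PBS libraries at 2 h, at adjusted p = 0.734 and 0.761. At 24 h, 0 of the 39 passed by edgeR or DESeq2, and 1 had an unadjusted p under 0.05 (EPAS1, 0.39). Of all genes, 0% were called, while 112 (0.79%) had an unadjusted p under 0.05. That share is below what no effect at all would give at this threshold. A missed threshold therefore does not show that flagellin left these genes unchanged. PFKFB3 at 24 h was at 361, 374, 422 and 340 CPM in PBS and 401, 501, 404 and 373 CPM with flagellin, which overlap. The lowest differences at 24 h were CA12 (-0.83), ENO2 (-0.26) and PDK3 (-0.16), and the highest were NDRG1 (0.43), STC1 (0.41) and ADM (0.41), each at an adjusted p of 1. For the last 3, the sign turned without flagellin 24 h replicate 2 (-0.10, -0.07 and -0.06), 1 of the 5 libraries low in secretory and ciliated markers. Among the further HIF genes, ANGPTL4, a lipase inhibitor, was higher with flagellin at 2 h (30.2 ± 6.26 against 18 ± 1.69 CPM, log2 difference 0.75, adjusted p = 0.00616).

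**Figure D4:**
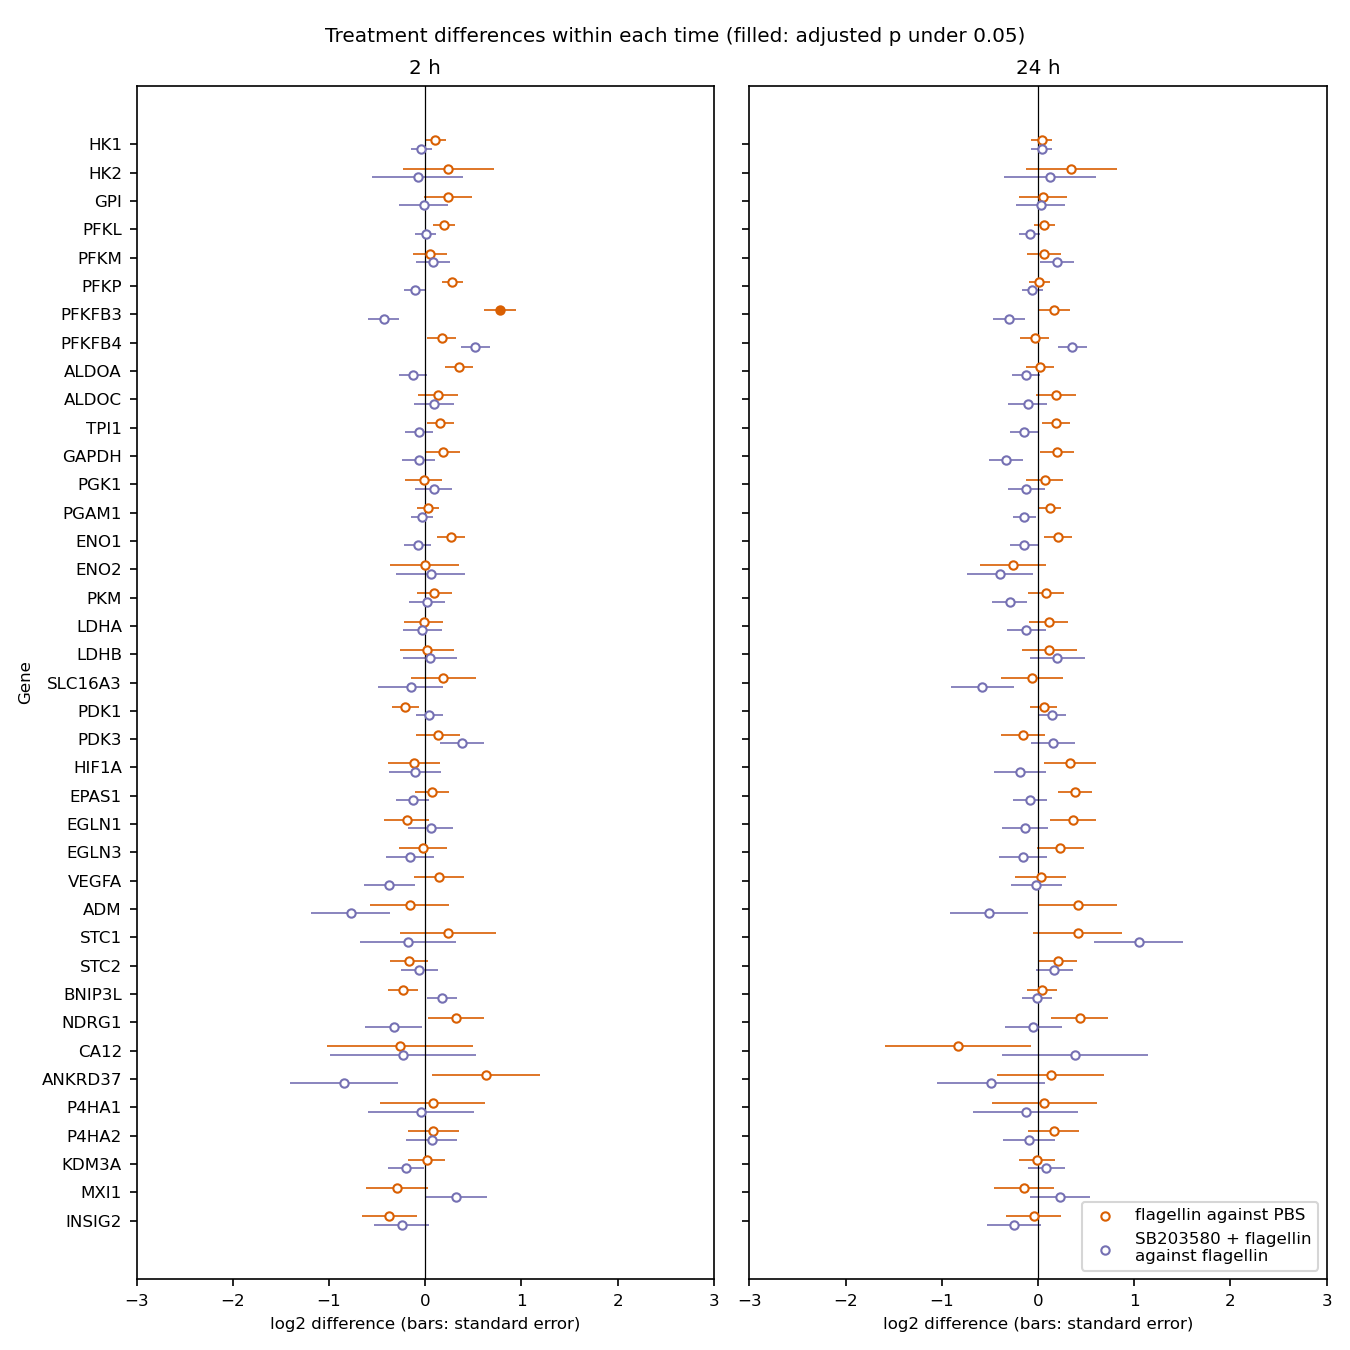
Log2 differences between treatments within 2 h (left) and 24 h (right) for each gene, with standard errors: flagellin against PBS (orange) and SB203580 plus flagellin against flagellin (purple). PFKFB3 at 2 h with flagellin is the only filled point, that is, the only one with an adjusted p under 0.05.

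Adding SB203580 to flagellin asks whether p38 activity shapes the response. At 2 h, 0 of the 39 passed by edgeR or DESeq2, beside 0.00706% of all genes called. At an unadjusted p under 0.05 there were 2 (5.13%), beside 2.27% of all genes. Those 2 were the pair of fructose 2,6-bisphosphate enzymes, with opposite signs. PFKFB3 was at 349, 367, 239 and 345 CPM, a log2 difference of -0.43 (SE 0.162, adjusted p = 1). PFKFB4 had 22.5, 20.2, 17 and 19.7 CPM under flagellin, and the inhibitor group had 35.2, 26.7, 22 and 30 CPM, higher in 4 of 4 replicate numbers with slightly overlapping ranges (0.52, SE 0.148, adjusted p = 1). PDK3 (0.38) and MXI1 (0.32) were the next highest values, and ANKRD37 (-0.85) and ADM (-0.78) the lowest, with an adjusted p of 1. At 24 h, 0 passed by either tool, and 0% of all genes were called. At an unadjusted p under 0.05 there were again 2 (5.13%), beside 2.86% of all genes. STC1 had 5.87, 15.7, 5.02 and 7.23 CPM under flagellin at that time, and 22, 10.5, 13 and 24.4 CPM when the inhibitor was added (1.05, SE 0.463, adjusted p = 1). CA12 (0.38) and PFKFB4 (0.36) followed, and SLC16A3 (-0.58), ADM (-0.51) and ANKRD37 (-0.49) were lowest, also with an adjusted p of 1. At both times the share of all genes under an unadjusted p of 0.05 was below what no effect would give. A missed threshold therefore does not show that the inhibitor changed nothing.

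Against PBS, SB203580 plus flagellin gave 0 calls among the 39 at 2 h by edgeR, beside 0.183% of all genes, and DESeq2 called 1. An unadjusted p under 0.05 was found for 5 (12.8%), beside 4.75% of all genes. With the block 2 passed, beside 0.804% of all genes: PFKFB4 (0.68, adjusted p = 0.0143) and INSIG2 (-0.60, adjusted p = 0.0281). PFKFB4 was at 19, 16.9, 16.9 and 17.6 CPM in PBS, below all 4 libraries with SB203580 plus flagellin. INSIG2 was at 22.7, 21.6, 47.2 and 36.4 CPM in PBS and at 15.3, 14.5, 26.1 and 27.7 CPM with SB203580 plus flagellin, lower in each replicate number. Without the block ADM (-0.94) and CA12 (-0.49) were lowest beside INSIG2, and PDK3 (0.51) and PFKFB3 (0.35) highest beside PFKFB4, none past the test. At 24 h, 0 passed by edgeR or DESeq2, beside 0.00706% of all genes. An unadjusted p under 0.05 was found for 2 (5.13%), near the 4.25% of all genes. STC1 in all 4 libraries with SB203580 plus flagellin was then above all 4 PBS libraries (1.46, SE 0.468, adjusted p = 1). HK2 (0.47) and NDRG1 (0.38) followed, and ENO2 (-0.66), SLC16A3 (-0.65) and CA12 (-0.45) were lowest, none past the test.

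Whether a treatment changed the size of the rise between 2 h and 24 h was tested directly. For flagellin against PBS 0 of the 39 passed, beside 0.0423% of all genes, and 1 (2.56%) had an unadjusted p under 0.05, beside 1.66% of all genes. That gene was PFKFB3, whose time change gave a contrast of -0.61 (SE 0.229, adjusted p = 1), with CA12 at -0.57, ANKRD37 at -0.50, HIF1A at 0.45, EGLN1 at 0.56 and ADM at 0.57. For SB203580 plus flagellin against flagellin 0 passed, beside 0% of all genes, and 0 had an unadjusted p under 0.05, the values running from -0.45 for ENO2, -0.43 for SLC16A3 and -0.32 for PKM to 0.36 for ANKRD37, 0.62 for CA12 and 1.22 for STC1. For SB203580 plus flagellin against PBS 0 passed, beside 0% of all genes, and DESeq2 called 0 in all 3 contrasts. At an unadjusted p under 0.05 there were 2 (5.13%) by edgeR, beside 1.75% of all genes, and 3 by DESeq2. The extremes there were ENO2 (-0.71), SLC16A3 (-0.69) and PDK3 (-0.52), and STC1 (1.39), ADM (0.84) and STC2 (0.61). The SE of these contrasts ran from 0.156 for HK1 to 1.07 for CA12, so a missed threshold does not show that the time changes were alike.

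The sets of replicates differed across the whole table, and in these genes with it. At 2 h, 12 of the 39 had all 6 libraries of replicates 3 and 4 above all 6 of replicates 1 and 2, and 3 had them below, where 26.8% of all genes separated in either direction. At 24 h the counts were 6 and 5, a smaller share than the 36.2% of all genes. P4HA1 was at 33.3 to 48 CPM in replicates 1 and 2 and 65.5 to 82 CPM in replicates 3 and 4 at 2 h, and at 53.8 to 72.9 and 207 to 234 CPM at 24 h. MXI1 was the other way round, at 32.1 to 54 and 17 to 26.6 CPM at 2 h. The sets share a replicate number by label, and the labels name nothing else that they share.

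The change between 2 h and 24 h itself differed between the sets in 12 of the 39 (7 larger and 5 smaller in replicates 3 and 4), while 35.0% of all genes did by the same contrast, so this share is near the background. ANKRD37, an ankyrin-repeat HIF target, changed by 2.50 on the log2 scale in replicates 1 and 2 of PBS and by -0.06 in replicates 3 and 4. KDM3A gave 1.07 and 0.05, HK2 1.72 and 0.61, and ADM 0.46 and -0.71. P4HA1 went the other way, with 0.81 and 1.66, as did CA12 with 0.79 and 2.08. SLC16A3 (3.76 and 3.42), NDRG1 (2.65 and 2.53), EGLN3 (1.89 and 1.75), PFKL (1.00 and 1.06) and PDK1 (0.96 and 1.13) gave like values in both sets, and the contrast passed for none of these 5.

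**Figure D5:**
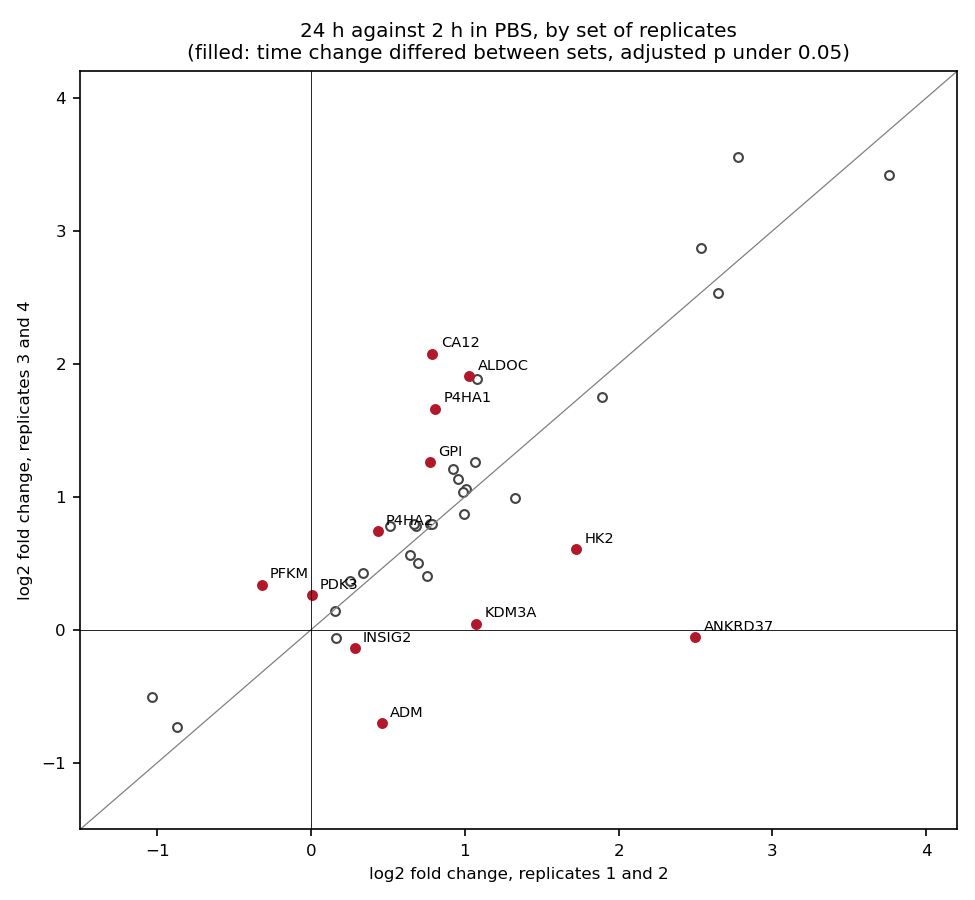
Log2 change between 2 h and 24 h in PBS in replicates 1 and 2 alone (horizontal) against replicates 3 and 4 alone (vertical), 1 point per gene, with the diagonal of equal change. SLC16A3, NDRG1 and EGLN3 lie near the diagonal, while ANKRD37, KDM3A and HK2 lie below it and P4HA1 and CA12 above it.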

How the data were processed

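RNA of 24 pig libraries was sequenced as paired ends, and the authors deposited 1 table of read counts per gene, unnormalized, with gene coordinates and exon lengths. STAR 2.4.0a and featureCounts (Subread 1.4.6-p1) are named in the submitters' processing notes, which also name the mouse build GRCm38. Neither the pig assembly nor a strand setting is given in the sources used here. The deposited exon length column was used for levels per kilobase. The 5988 features that are not pig genes (0.0013% of counts) were left out. Symbols came from a table of gene names, in which 14857 of 25880 pig genes have one.

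Genes that passed edgeR's own count filter by group (filterByExpr) were tested by edgeR 4.0.16 (R 4.3.3). TMM scaling and the robust quasi-likelihood test were used on all 6 groups (18 residual degrees of freedom). The rule of at least 1 CPM in 4 libraries or more applied to the members only. Benjamini-Hochberg adjustment ran over 14172 genes, and a call is an adjusted p under 0.05. CPM values are TMM-scaled. Folds of low genes depend on the prior count. The members and lists were chosen with earlier results of these data known. Named in each comparison was every called member where 12 or fewer were called, otherwise the 8 with the largest change in each direction, with up to 6 called only with the block, and, where none was called, the 3 highest and 3 lowest differences. The rest were added to account for every member, after their values were seen. The block takes the replicate numbers of the labels as pairs, which the data do not settle. All 60 correlations of same-numbered deviations from group means were above 0.1 (0.228 to 0.851). The difference between the sets of replicates raises these by itself, so they cannot show pairing by number. In 35 of the 60 pairs the same number was the best match. No 2 libraries of a group agreed within sampling noise. Alternatives were RLE scaling, no count filter, DESeq2 1.42.0, the block, a term for the set of replicates, each set alone, only the groups compared, each library left out and, chosen after seeing the data, 5 libraries left out. The script was tested on simulated data.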

Additional observations from a re-analysis of the deposited data

Results flagged for a closer look

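In 15 of 234 groups of 4 libraries 1 library lay far from the other 3 (its gap to the nearest was most of the group's range, by Dixon's test), where chance gives about 1 in 20. In flagellin at 24 h, replicate 2 was high for NDRG1 (2920 CPM, the others 1020 to 1070), ADM (408, the others 151 to 172), EGLN1 (326, the others 127 to 136) and BNIP3L (252, the others 173 to 183). In SB203580 plus flagellin at 24 h, replicate 1 was high for EGLN1 (231 CPM, the others 138 to 148), MXI1 (113, the others 53.2 to 61.1) and ANKRD37 (40.8, the others 17.8 to 21.7). Both libraries are among the 5 with low secretory and ciliated markers, as is SB203580 plus flagellin 2 h replicate 1, which was high for BNIP3L (206 CPM, the others 124 to 136). The part of those cells in the values was not tested.

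In PBS at 2 h, replicate 1 was low for EGLN3 (144 CPM, the others 293 to 311) and high for PDK3 (73, the others 43.6 to 47.7). In PBS at 24 h, replicate 3 was high for EGLN3 (1220 CPM, the others 781 to 825) and PDK1 (101, the others 77 to 78.8). In flagellin at 2 h, ENO2 was low in replicate 4 (0.651 CPM, the others 0.932 to 0.968) and STC1 high in replicate 2 (1.44, the others 0.538 to 0.676). PFKFB3 was low in replicate 3 of SB203580 plus flagellin at 2 h (239 CPM, the others 345 to 367).

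The change between 2 h and 24 h differed between replicates 3 and 4 and replicates 1 and 2 by a test of the difference in 12 genes, 35.0% of all genes passing the same test. On the log2 scale the change in replicates 3 and 4 was smaller for ANKRD37 (-2.51), ADM (-1.73), HK2 (-1.52), KDM3A (-0.87) and INSIG2 (-0.43). It was larger for CA12 (1.59), P4HA1 (0.77), PDK3 (0.71), ALDOC (0.62), PFKM (0.60), GPI (0.40) and P4HA2 (0.30).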

How the results depend on the processing

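With only the groups compared in the fit, 12 genes were called over time with flagellin and 12 with SB203580 plus flagellin. In the latter comparison 33 were called when the set was a term in the fit and 32 in replicates 3 and 4 alone. Shares of all genes are not given beside the counts of this paragraph. PFKFB3 with flagellin at 2 h was the 1 call of that comparison, and 0 were called in replicates 1 and 2 alone, with only the groups compared, or without the 5 libraries. SB203580 plus flagellin against flagellin at 2 h gave 1 call in replicates 3 and 4 alone, and against PBS at 2 h it gave 1 with DESeq2, 2 with the replicate block, 2 with the set term and 1 in replicates 3 and 4 alone. The block changed no call of the other treatment comparisons. Leaving out 1 library gave 18 to 24 calls in PBS over time, 18 to 22 with flagellin, 17 to 21 with SB203580 plus flagellin, 0 to 1 for flagellin against PBS at 2 h and 0 to 1 for SB203580 plus flagellin against PBS at 2 h.

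Among the genes named in each comparison, signs changed in 22 values, none of them past the test in the fit reported. Other members also changed sign: without the count filter 27 and not 26 of the 39 were positive for flagellin against PBS at 2 h, and 25 and not 23 for SB203580 plus flagellin against PBS at 2 h. Flagellin against PBS at 24 h turned to 0.053 for PDK3, -0.398 for STC1 and -0.154 for NDRG1 in replicates 3 and 4 alone. It turned to -0.058 for ADM, -0.063 for STC1 and -0.097 for NDRG1 without the 5 libraries. With 1 library left out it ran from -0.062 to 0.555 for ADM, -0.065 to 0.704 for STC1 and -0.101 to 0.581 for NDRG1, each lowest without flagellin 24 h replicate 2. ANKRD37 in SB203580 plus flagellin against flagellin at 24 h was 0.605 in replicates 3 and 4 alone and -0.836 to 0.108 with 1 library left out. CA12 in SB203580 plus flagellin against PBS was -0.911 to 0.136 at 2 h with 1 library left out, and 0.121 at 24 h in replicates 3 and 4 alone. The flagellin-by-time term was -0.145 for HIF1A and -0.036 for ADM in replicates 3 and 4 alone, -0.077 for HIF1A without the 5 libraries, and -1.112 to 0.107 for ANKRD37 with 1 library left out. The SB203580-by-time term was -0.606 for ANKRD37 in replicates 1 and 2 alone and -0.257 to 0.952 with 1 library left out. It was 0.295 for ENO2 and 0.096 for SLC16A3 in replicates 3 and 4 alone, and 0.115 for ENO2 without the 5 libraries. The cause was not tested.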
